A study of Mus musculus with 6 samples.

Results

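The 39 genes described here encode the contractile, calcium-handling and energy-supply proteins of skeletal muscle, together with the transcription factors Myod1 and Myog and the fusion protein Mymk. They were taken by symbol from the 29018 genes of the deposited table, and each symbol matched 1 row. Some of the 39 were picked because they were lower in the KO libraries, so every KO against WT value of a member below is a description, and no test of a member supports anything. RNA sequencing had been done on poly(A) RNA of osteoblasts, the bone-forming cells, cultured from neonatal mouse calvaria (the flat bones roofing the skull) under osteogenic conditions. There were 3 libraries from wild-type (WT) cells and 3 from cells labelled as a knockout (KO) of NDR1, the protein kinase whose gene is Stk38. The strain, sex and pooling of the mice, the design of the KO allele and the day of culture were not given in the sources used here, nor whether the replicates came from separate animals, so a p-value here weighs a difference only against library-to-library spread, possibly technical.

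In skeletal muscle, thick filaments of myosin slide along thin filaments of actin within a repeating unit called the sarcomere, whose ends are anchored in the Z-disc and whose middle is held by the M-band. A nerve signal opens acetylcholine receptors, the surface change is sensed in the T-tubule, calcium leaves the sarcoplasmic reticulum, and troponin on the thin filament lets myosin pull. Myoblasts enter this program under MyoD and myogenin and fuse into myotubes, while embryonic and perinatal myosins give way to adult forms as fibres mature. Osteoblasts are not known to build sarcomeres.

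Promoters of 4 members are printed because they belong to 3 thick filament genes whose KO and WT libraries lay far apart and to the 1 member past the threshold and higher in KO. Each run gives the 250 bases before the annotated gene start, 5′ to 3′ on the gene's strand, from RefSeq on build GRCm38.p6. Capitals mark matches on either strand to the E-box CANNTG, to TATAAA, to the MEF2 box and to the CArG box, the last being the site of serum response factor.
Myh1, chr11:67199852-67200101, plus strand: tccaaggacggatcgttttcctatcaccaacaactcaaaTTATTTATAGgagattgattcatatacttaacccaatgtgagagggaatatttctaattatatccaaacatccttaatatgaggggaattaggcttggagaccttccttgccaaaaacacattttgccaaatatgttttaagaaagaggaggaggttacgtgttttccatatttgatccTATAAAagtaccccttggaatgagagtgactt
Myh8, chr11:67276874-67277123, plus strand: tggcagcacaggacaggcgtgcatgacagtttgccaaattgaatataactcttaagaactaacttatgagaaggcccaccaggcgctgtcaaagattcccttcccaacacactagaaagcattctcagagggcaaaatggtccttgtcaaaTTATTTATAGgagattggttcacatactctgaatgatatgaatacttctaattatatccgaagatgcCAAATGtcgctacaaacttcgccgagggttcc
Mybph, chr1:134193198-134193447, plus strand: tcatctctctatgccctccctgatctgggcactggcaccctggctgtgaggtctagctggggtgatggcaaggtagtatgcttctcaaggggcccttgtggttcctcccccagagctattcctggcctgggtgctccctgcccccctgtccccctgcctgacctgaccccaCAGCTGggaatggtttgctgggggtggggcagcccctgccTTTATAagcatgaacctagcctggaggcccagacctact
Ldb3, chr14:34588682-34588931, minus strand: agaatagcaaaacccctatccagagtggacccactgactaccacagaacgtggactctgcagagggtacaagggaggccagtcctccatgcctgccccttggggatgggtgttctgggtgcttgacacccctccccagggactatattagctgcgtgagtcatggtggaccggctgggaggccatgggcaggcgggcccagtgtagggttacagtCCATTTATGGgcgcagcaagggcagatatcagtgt
Myh1 and Myh8 shared an exact run of 22 bases, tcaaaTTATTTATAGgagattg, which holds a MEF2 box and lies 216 bases before the start of Myh1 and 104 bases before that of Myh8. Within that box TATAAA also matches on the opposite strand. The neighbouring Myh4 promoter shared a run of 17 bases with Myh8, tgtcaaaTTATTTATAG, which includes that box. Mybph held the E-box CAGCTG 79 bases before its start, and Ldb3 held a CArG box 35 bases before its start.

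RefSeq promoters were matched for 29 of the 39 members, taking the first listed start of each gene and the 300 bases from 250 before to 50 after it. The E-box CANNTG was found in 24 of the 29 (82.8%) and in 72.1% of all 27025 promoters of that length. Its form CAGCTG, which is counted within CANNTG, was found in 14 of the 29 (48.3%) against 16.1% of all promoters. TATAAA was found in 8 (27.6%) against 14.2%, the MEF2 box in 6 (20.7%) against 3.26% and the CArG box in 3 (10.3%) against 1.57%. These matches are letters in a window and show no binding. Of the 13 matched members past the threshold and lower in KO, 11 held CANNTG, 7 CAGCTG, 5 TATAAA, 3 a MEF2 box and 0 a CArG box. A link between these boxes and the difference was not tested.

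The targeted gene was still read. Stk38 had 3843, 3004 and 4040 counts in KO libraries 1 to 3 and 4781, 5082 and 5331 in WT libraries 1 to 3, with 65.5% of the WT level left. The log2 change was -0.61 ± 0.05 (SE; adjusted p = 8.10e-06 in edgeR). Permuting the 6 labels (exact, two-sided) gave p = 0.1, which is the lowest value possible with 3 libraries a side. Which exons the allele removes is not known here, so reads over the whole gene do not check the labels fully. The deposited counts summed to between 61461870 and 76159034 per library, and 2.32 to 2.48% of them came from mitochondrial genes. Deposited values of 4, 8 and 12 were more frequent than their neighbours (6561 values equal to 4 against 2909 equal to 3 and 1937 equal to 5), though values of 1 (5452) and 2 (4267) were also frequent. This is what a scale of about 4 counts per sequenced fragment would give, but the sources used here do not state it. Fragment numbers, counting intervals and lower bounds on a fold below assume that scale, which makes each bound smaller than 1 count per fragment would. All 9 osteoblast markers were read in every library. Nearly all of their summed level (4869 to 5077 FPKM in KO, 6529 to 6759 FPKM in WT) came from the collagens Col1a1 and Col1a2, while the late marker Bglap was at 0.583 FPKM in KO and 1.08 FPKM in WT. Of the 9, 6 fell in KO and none rose, among them Alpl (-1.18 ± 0.06, adjusted p = 1.81e-07 in edgeR) and Dmp1 (-1.18 ± 0.10, adjusted p = 1.64e-05).

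The muscle genes were read at a very low level. Of the 9 thick filament genes, 7 had all 3 KO values below all 3 WT values, against 12.9% of all 29018 genes. Members were picked partly on this contrast, so nothing is read from that count. FPKM, a level per transcript length and library size, is used for levels and for comparing genes. Summed over the 39 members it was 13.1, 12.7 and 13.8 in KO libraries 1 to 3 and 22.5, 23.9 and 21.6 in WT libraries 1 to 3. In WT 6 members averaged at least 1 FPKM and 14 averaged under 0.1 FPKM. In KO 3 members averaged at least 1 FPKM. The libraries are of whole cultures, where fewer muscle cells and less RNA per cell cannot be told apart.

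**Figure D1:**
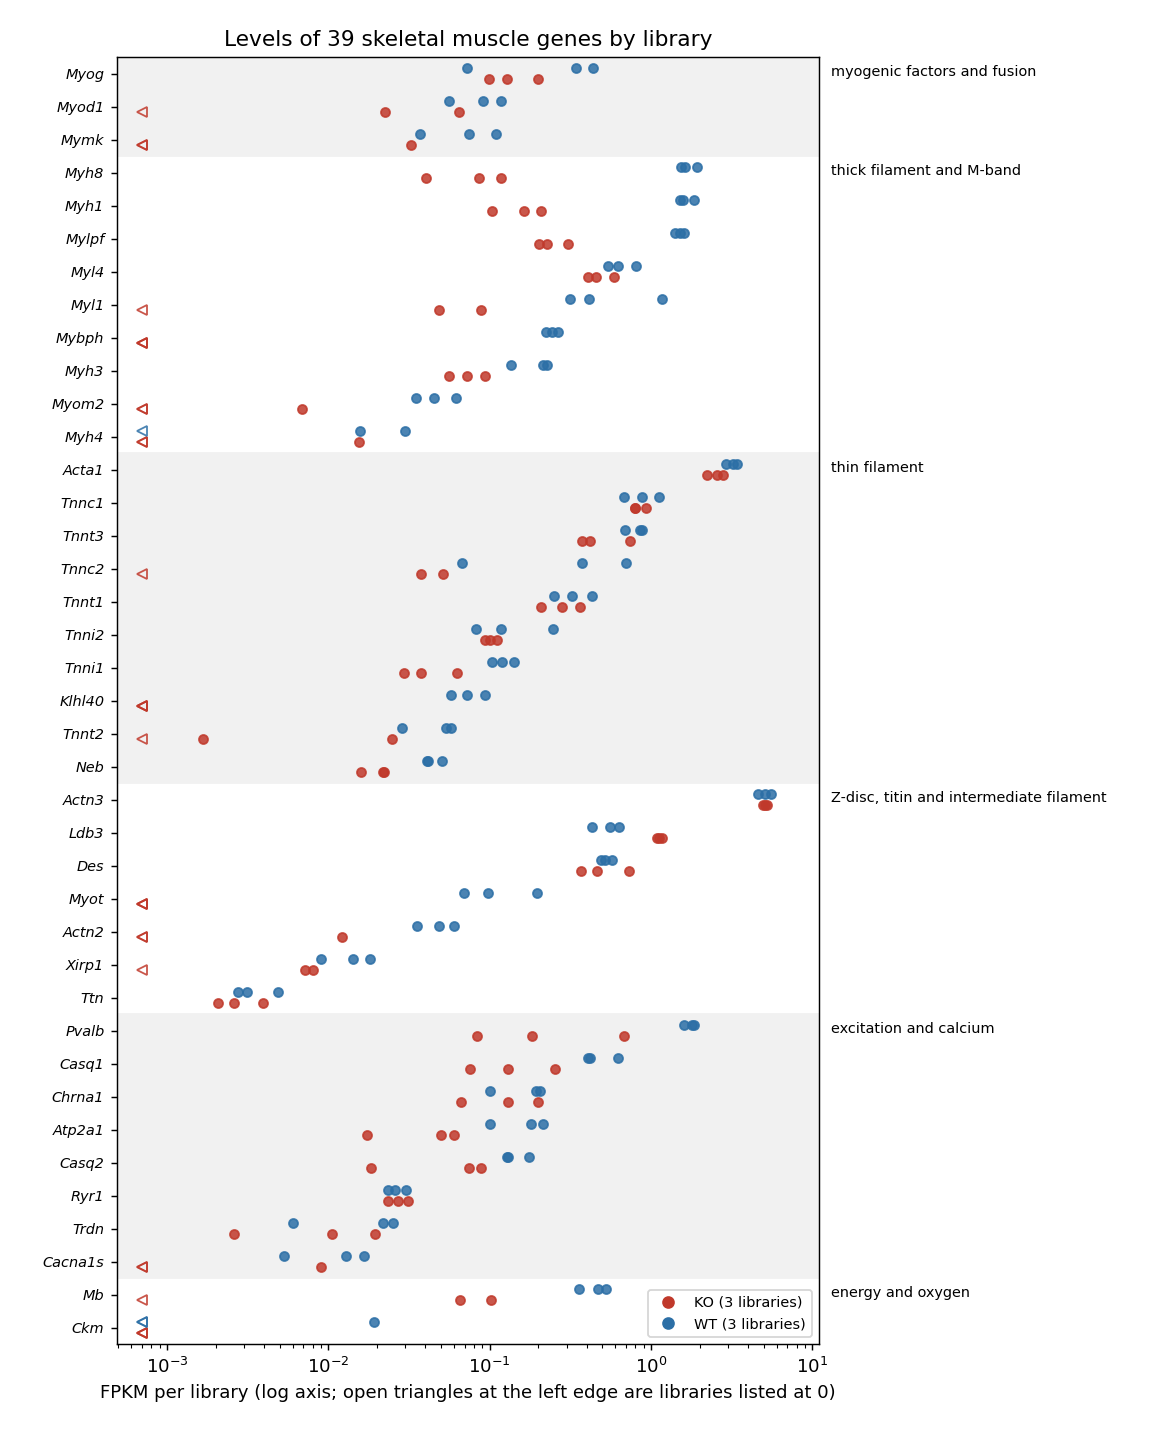
FPKM of each of the 39 members (rows, grouped by role) in the 3 KO (red) and 3 WT (blue) libraries on a log axis, with open triangles at the left edge for libraries listed at 0. Myh8, Myh1, Mylpf and Pvalb stand at 1.40 to 1.92 FPKM in every WT library and at most 0.68 FPKM in KO, while Actn3 and Acta1 overlap or nearly overlap and Ldb3 lies higher in KO.

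The filter on low counts kept 32 of the 39 members, and 7 were too low to test, namely Myod1, Mymk, Myh4, Tnnc2, Xirp1, Cacna1s and Ckm. In the fit across all genes, 16 of the 32 were past the threshold (edgeR, Benjamini-Hochberg adjusted p under 0.05) and lower in KO, 1 was past it and higher, and 15 did not pass. Over all 18221 genes tested, 11.7% were called lower and 11.2% higher. Since members were chosen partly on this contrast, the count is set beside that background and nothing is read from it. The median log2 change was -1.35 over the 32 members and 0.00 over all genes tested. Counted over all 39 members, 22 had the 3 KO values wholly below the 3 WT values and 1 had them wholly above, against 12.9% and 13.3% of all 29018 genes.

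**Figure D2:**
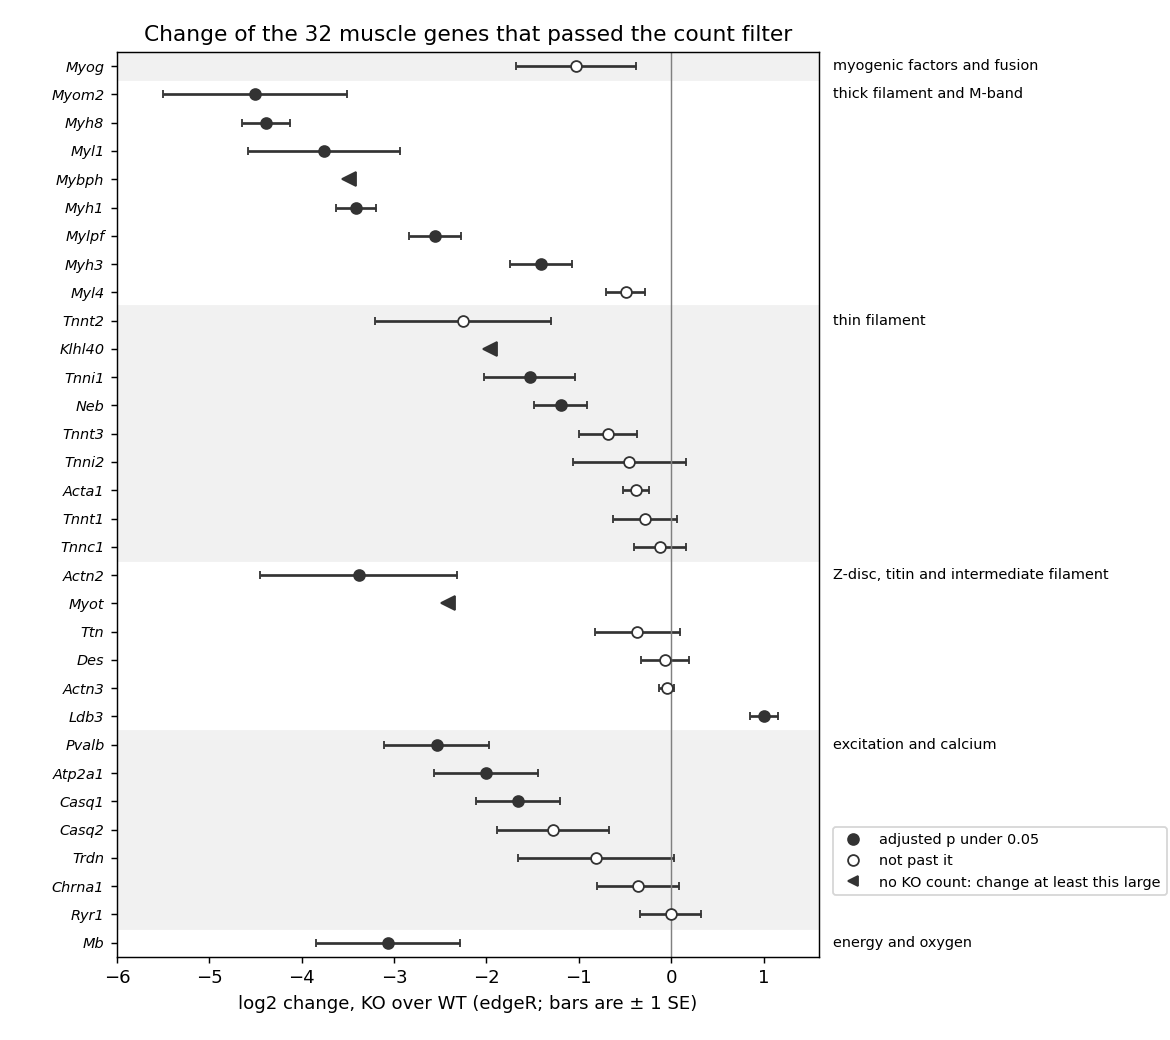
log2 change, KO over WT, from edgeR for the 32 members that passed the count filter, with bars of 1 SE. Filled points were past an adjusted p of 0.05 in the fit over all genes. Triangles mark Mybph, Klhl40 and Myot, which had no KO count. Their change is at least as large as drawn if the WT mean is taken as exact. The thick filament points have a median of -3.45 with Mybph placed at its bound, and Ldb3 at 1.003 is the only filled point to the right of 0.

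Among the regulators, Myog, which encodes myogenin and switches on the late genes of myoblast differentiation, had 12, 20 and 16 counts in KO and 8, 47 and 37 in WT. The lowest of its 6 values was a WT library, so the groups overlapped (log2 change -1.03 ± 0.65, not past the threshold). Myod1, the MyoD gene that commits cells to the muscle lineage, had 4, 8 and 0 counts in KO and 8, 12 and 16 in WT. Mymk, the membrane protein myomaker needed for myoblast fusion, had 0, 0 and 4 counts in KO and 4, 8 and 12 in WT. Both rest on about 3 fragments or fewer in the KO libraries together, and the ratio of WT to KO fragments had a 95% counting interval of 0.816 to 18.8 for Myod1 and 0.794 to 301 for Mymk (Clopper-Pearson). A difference in either was not detectable at this depth.

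The thick filament held the largest differences. Myh8, the perinatal myosin heavy chain, had 81, 31 and 113 counts in KO and 1280, 1599 and 1383 in WT. Every WT library lay far above every KO library. On the CPM scale (counts scaled to library size by TMM) the mean was 1.008 ± 0.49 in KO and 21.5 ± 2.52 in WT, 21.3-fold lower in KO (log2 change -4.39 ± 0.26). Myh1, the adult fast myosin of type 2X fibres, had 53, 69 and 107 counts in KO and 716, 830 and 698 in WT, 10.7-fold lower in KO (-3.41 ± 0.22). The groups were again far apart, and the 3 WT values lay close together. Myh3, the embryonic myosin, had 45, 29 and 28 counts in KO and 58, 97 and 94 in WT (-1.41 ± 0.33), a smaller gap in which WT library 1 lay nearest to KO, and its call was lost without WT replicate 2 (adjusted p = 0.0520 in edgeR) and in limma on log2(FPKM + 1) without a filter (adjusted p = 0.0538). Myh4, the fast myosin of type 2B fibres, had 8 counts in 1 KO library and 13 and 7 in 2 WT libraries, and was listed at 0 in the remaining libraries.

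In WT the 4 heavy chain genes summed to 3.55 ± 0.40 FPKM, of which Myh8 made up 47.6 ± 0.91%, Myh1 46.5 ± 1.61%, Myh3 5.39 ± 1.15% and Myh4 0.43 ± 0.46% (SD, n = 3). In KO they summed to 0.32 ± 0.07 FPKM, with Myh8 at 24.8 ± 8.91%, Myh1 at 49.5 ± 11.6% and Myh3 at 24.4 ± 9.59%. By FPKM, perinatal and adult fast myosin thus stood level in WT, with the embryonic form in the minority. By CPM, which takes no account of transcript length, Myh8 was at 21.5 ± 2.52 and Myh1 at 11.3 ± 1.17 in WT. In WT library 1 the 1280 counts of Myh8 gave 1.53 FPKM, and the 716 counts of Myh1 gave 1.59 FPKM. The deposited FPKM thus took a longer length for Myh8 than for Myh1. The even split holds on the FPKM scale only and rests on those lengths, which were not checked. The 4 genes lie on chromosome 11 between 66969126 and 67199460 in the deposited coordinates, whose mouse build was not settled. Myh2, a myosin gene outside the members and not in these sums, lies between Myh3 and Myh1. The coding sequences of the 4 genes are close copies. How reads that fit several of them were counted was not given, so the split between them is uncertain. In the deposited coordinates Myh1 also overlaps the antisense gene Myhas, which was at 0.005 FPKM in both genotypes.

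**Figure D3:**
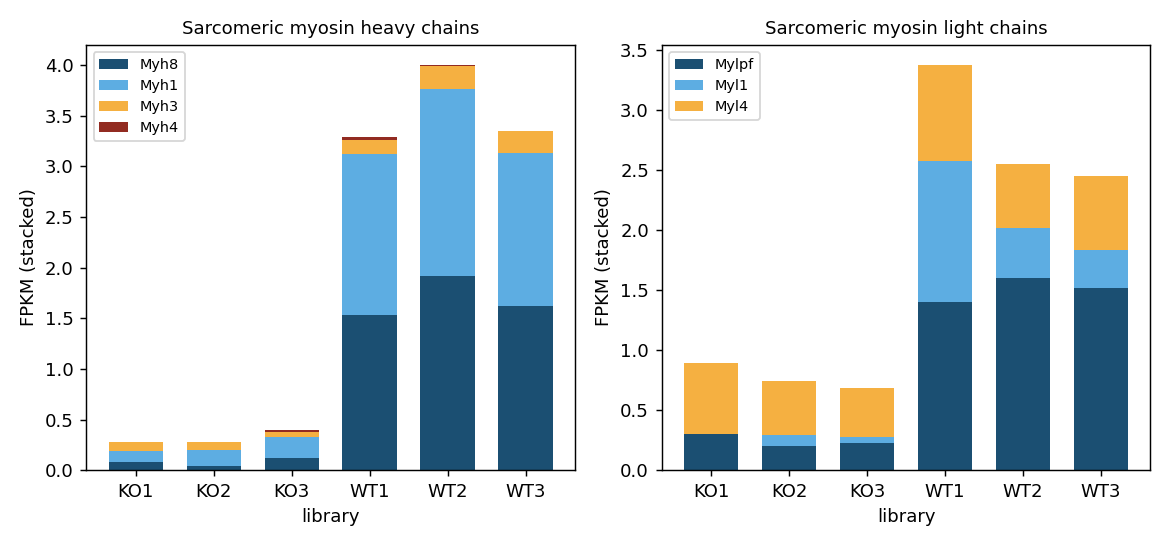
Stacked FPKM of the sarcomeric myosin heavy chains (left) and light chains (right) in each of the 6 libraries. Heavy chains reach 3.29 to 4.001 FPKM in WT, split almost evenly between Myh8 and Myh1 by FPKM but not by CPM. In KO they reach 0.28 to 0.40 FPKM, and Myl4 is the largest block of the light chains in each KO library.

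Light chains, which sit at the neck of the myosin head, divided in the same libraries. Mylpf, the fast regulatory light chain, had 27, 15 and 22 counts in KO and 106, 122 and 117 in WT (1.51 ± 0.10 FPKM in WT, 5.94-fold lower in KO, log2 change -2.56 ± 0.28). Myl1, the fast essential light chain, had 0, 13 and 9 counts in KO and 173, 63 and 48 in WT (-3.76 ± 0.83). WT library 1 stood far above the other WT libraries for Myl1 but not for Mylpf, and without it the gap of Myl1 did not pass (adjusted p = 0.0626 in edgeR), nor in limma on log2(FPKM + 1) without a filter (adjusted p = 0.123). Myl4, the essential light chain of embryonic muscle and of the heart's atria, had 218, 138 and 154 counts in KO and 267, 179 and 210 in WT. The groups overlapped and the log2 change of -0.49 ± 0.21 did not pass. Myl4 made up 62.2 ± 3.38% of the summed FPKM of these 3 light chains in KO and 23.4 ± 2.16% in WT.

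Mybph, a myosin-binding protein of fast fibres related to myosin-binding protein C, had no count in any KO library and 41, 44 and 38 in WT. The 3 KO libraries together were set to 12 counts, or 3 fragments of about 4 counts, and the WT mean was taken as exact. On that floor Mybph was at least 11.2-fold lower in KO, a bound that leaves out counting error in WT. Myom2, an M-band protein that links thick filaments, had 0, 4 and 0 counts in KO and 30, 41 and 23 in WT. About 1 fragment against 24 gave a ratio of 26.2 with a 95% counting interval of 4.27 to 1080 (Clopper-Pearson). All 3 WT libraries lay above all 3 KO libraries for both genes.

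The thin filament was less uniform. Acta1, the actin of skeletal muscle, was the second most abundant member at 2.57, 2.22 and 2.81 FPKM in KO and 3.24, 3.43 and 2.92 FPKM in WT. The groups did not overlap but lay close, and the log2 change of -0.38 ± 0.14 did not pass in edgeR. In limma on log2(FPKM + 1) among genes averaging 1 FPKM or more it did (-0.25, adjusted p = 0.0490). Acta1 transcripts resemble those of the smooth muscle actins, which these cultures hold in quantity (Acta2, 1007 FPKM in KO, 1120 FPKM in WT), and reads that fit both may be counted for either. Neb, the giant ruler protein nebulin, had 47, 38 and 35 counts in KO and 78, 96 and 80 in WT (-1.20 ± 0.28), a call lost in limma on log2(FPKM + 1) without a filter (adjusted p = 0.137). Klhl40, which stabilises nebulin, had no count in KO and 12, 13 and 18 in WT. On the same floor of 12 counts, with the WT mean taken as exact, it was at least 3.90-fold lower in KO.

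Troponin has a tropomyosin-binding T subunit, an inhibitory I subunit and a calcium-binding C subunit, each with fast and slow forms. Fast Tnnt3 was the main T form in both genotypes (68.0 ± 5.33% of summed troponin T FPKM in WT and 62.8 ± 12.3% in KO), at 0.375, 0.421 and 0.741 FPKM in KO and 0.690, 0.874 and 0.855 in WT. Its groups overlapped through KO library 3, and the log2 change of -0.69 ± 0.31 did not pass, but without KO replicate 3 it was -1.06 and passed (adjusted p = 0.0336 in edgeR). In the deposited coordinates Tnnt3 overlaps Prr33 on the other strand (0.57 FPKM in KO, 0.43 FPKM in WT). Reads of Prr33 cannot be told apart there where the counting ignores strand. Slow Tnnt1 stood at -0.28 ± 0.35 and cardiac Tnnt2 at -2.26 ± 0.95, the latter with 17, 0 and 2 counts in KO and 17, 33 and 32 in WT. Neither passed with all libraries, but without KO replicate 1 Tnnt2 was at -4.71 and passed (adjusted p = 0.0153 in edgeR).

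For troponin C both genotypes held mostly the slow and cardiac form. Tnnc1 was at 0.801, 0.797 and 0.927 FPKM in KO and 1.12, 0.885 and 0.679 in WT (-0.12 ± 0.28, not past the threshold), and made up 96.5 ± 3.13% of troponin C in KO and 73.9 ± 17.6% in WT. Fast Tnnc2 was too low to test, with 3, 3 and 0 counts in KO and 22, 40 and 4 in WT. Its WT values were widely spread, and in the deposited coordinates it overlaps Ube2c on the other strand, a cell cycle gene (15.4 FPKM in KO, 11.3 FPKM in WT) whose reads cannot be told apart where the counting ignores strand. Of the I forms, slow Tnni1 had 12, 15 and 9 counts in KO and 32, 38 and 28 in WT. Its log2 change of -1.53 ± 0.49 was just past the threshold (adjusted p = 0.0490 in edgeR) and did not pass without any 1 of the 6 libraries (adjusted p up to 0.156). Fast Tnni2 stood at -0.45 ± 0.61 and did not pass.

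At the Z-disc the members went separate ways. Actn3, the alpha-actinin of fast fibres, was the most abundant member at 5.06, 4.94 and 5.26 FPKM in KO and 4.60, 5.52 and 5.12 in WT. Its groups overlapped, with a log2 change of -0.05 ± 0.08. Actn2, its close relative found in all fibres and in heart, had 0, 0 and 4 counts in KO and 10, 17 and 14 in WT. About 1 fragment against 10 gave a ratio of 10.9 with a 95% counting interval of 1.55 to 473, and its call was lost when either KO replicate 1 or 2, or any 1 WT library, was left out (adjusted p up to 0.153 in edgeR). Actn3 made up 99.1 ± 0.16% of the 2 genes' FPKM in WT.

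Myot, the actin-bundling protein myotilin, had no count in KO and 11, 16 and 32 in WT. On the floor of 12 counts, with the WT mean taken as exact, it was at least 5.33-fold lower in KO. Its call was lost in limma on log2(FPKM + 1) without a filter (adjusted p = 0.0733). Ldb3, also called ZASP or Cypher, links alpha-actinin to signalling enzymes at the Z-disc and went the opposite way. It had 528, 445 and 578 counts in KO and 242, 275 and 191 in WT, with every KO library above every WT library. Its CPM was 7.17 ± 0.31 in KO and 3.58 ± 0.68 in WT (log2 change 1.003 ± 0.154). Ldb3 was the only member past the threshold and higher in KO.

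The remaining anchoring genes showed small differences or were hardly read. Des, the intermediate filament desmin, also found in smooth muscle, had 220, 91 and 142 counts in KO and 154, 132 and 142 in WT, and its KO values spanned the WT values. Ttn, which encodes titin, the spring that spans from Z-disc to M-band, had 20 to 31 counts in KO and 23 to 42 in WT. Per transcript length it was the lowest of the 39 genes in WT, at 0.004 FPKM. Xirp1, an actin-binding repair protein, had 4, 3 and 0 counts in KO and 4, 8 and 7 in WT. The changes of Des (-0.07 ± 0.26) and Ttn (-0.37 ± 0.46) did not pass.

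Of the 8 genes of excitation and calcium handling, 3 were past the threshold and lower in KO, 4 did not pass and 1 was too low to test. Over all 18221 genes tested 11.7% were called lower and 11.2% higher. As members were picked partly on this contrast, nothing is read from the count. Pvalb, the calcium buffer parvalbumin of fast fibres, had 7, 47 and 16 counts in KO and 134, 119 and 141 in WT. Its WT level of 1.754 ± 0.140 FPKM overlapped those of Myh8 and Myh1, and KO library 2 held more of it than the other KO libraries (log2 change -2.54 ± 0.57). Casq1, the calcium store protein calsequestrin of fast fibres, had 41, 10 and 21 counts in KO and 86, 58 and 60 in WT (-1.66 ± 0.45). Atp2a1, the fast-fibre calcium pump SERCA1, had 14, 14 and 5 counts in KO and 45, 25 and 55 in WT (-2.00 ± 0.56). The groups did not overlap for these 3 genes. The calls of Casq1 and Atp2a1 were each lost on leaving out 1 of 4 libraries, KO replicate 3 and WT replicates 1 and 3 for both, KO replicate 2 for Casq1 and KO replicate 1 for Atp2a1 (adjusted p up to 0.104 and 0.118 in edgeR). Atp2a1 also missed the threshold in limma without a filter and with a replicate block.

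Casq2, the slow and cardiac calsequestrin, had 4, 16 and 18 counts in KO and 25, 26 and 36 in WT, groups that did not overlap, but its log2 change of -1.28 ± 0.61 did not pass. Ryr1, the calcium release channel of the sarcoplasmic reticulum, was level with 48, 34 and 56 counts in KO and 37, 40 and 49 in WT (log2 change 0.00 ± 0.33). Chrna1, a subunit of the muscle acetylcholine receptor, had 46, 20 and 71 counts in KO and 61, 64 and 32 in WT (-0.36 ± 0.45). Trdn, which holds calsequestrin to the release channel, stood at -0.81 ± 0.84. None of these 4 passed. Cacna1s, the voltage sensor of the T-tubule, had 4 counts in 1 KO library and 6, 8 and 3 in WT.

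Of the energy and oxygen genes, Mb, which encodes the oxygen store myoglobin, had 0, 10 and 8 counts in KO and 38, 56 and 51 in WT. It was 8.33-fold lower in KO with no overlap (log2 change -3.07 ± 0.78). Without WT replicate 2 or WT replicate 3 its call was lost (adjusted p up to 0.0644 in edgeR). Mb overlaps Apol6 on the other strand, which stood at 4.84 FPKM in KO and 2.19 FPKM in WT. Ckm, the muscle creatine kinase that is among the most abundant transcripts of mature fibres, was listed at 0 in 5 libraries and had 4 counts, about 1 fragment, in WT library 1.

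Ordered by WT level, Actn3 (5.08 ± 0.46 FPKM) and Acta1 (3.20 ± 0.26 FPKM) came first, each clear of the next gene in every library. Pvalb, Myh8, Myh1 and Mylpf followed between 1.754 and 1.51 FPKM, and neighbours in that run overlapped. Tnnc1 came next at 0.89 FPKM, below Mylpf in every library. From Tnnc1 down, neighbours overlapped at nearly every step, the only exception being Neb over Ryr1. The WT libraries did not rank alike over the members. WT library 2 was highest for 20 of 39 members, WT library 3 for 11 and WT library 1 for 8.

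Muscle genes outside the 39 did not move as one. Of 111 such genes listed by role, 110 were matched and 81 passed the count filter, of which 14 fell and 9 rose in KO, with 58 not called (edgeR, Benjamini-Hochberg adjusted p under 0.05). The median log2 change was -0.18. These shares of the tested genes can be read against the 11.7% and 11.2% over all genes. Myf6 was not analysed here.

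Of the 13 tested genes in the list of further thick filament and M-band genes, 3 fell and none rose. Mybpc1, the slow myosin-binding protein C, had 387, 300 and 300 counts in KO and 1443, 1533 and 1519 in WT, and fell from 22.7 ± 0.65 to 4.58 ± 0.61 CPM (log2 change -2.31 ± 0.10, adjusted p = 1.11e-07 in edgeR). Unc45b, a chaperone for myosin folding, changed by -1.49 ± 0.32 (adjusted p = 0.00718). Myh2, the type 2A myosin, had 14, 0 and 0 counts in KO and 38, 29 and 58 in WT (adjusted p = 0.0423), and its call held only without KO replicate 1 when single libraries were left out (adjusted p up to 0.151). Myh7, the slow myosin, had 8 counts in 1 KO library and 12 and 7 in 2 WT libraries.

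**Figure D4:**
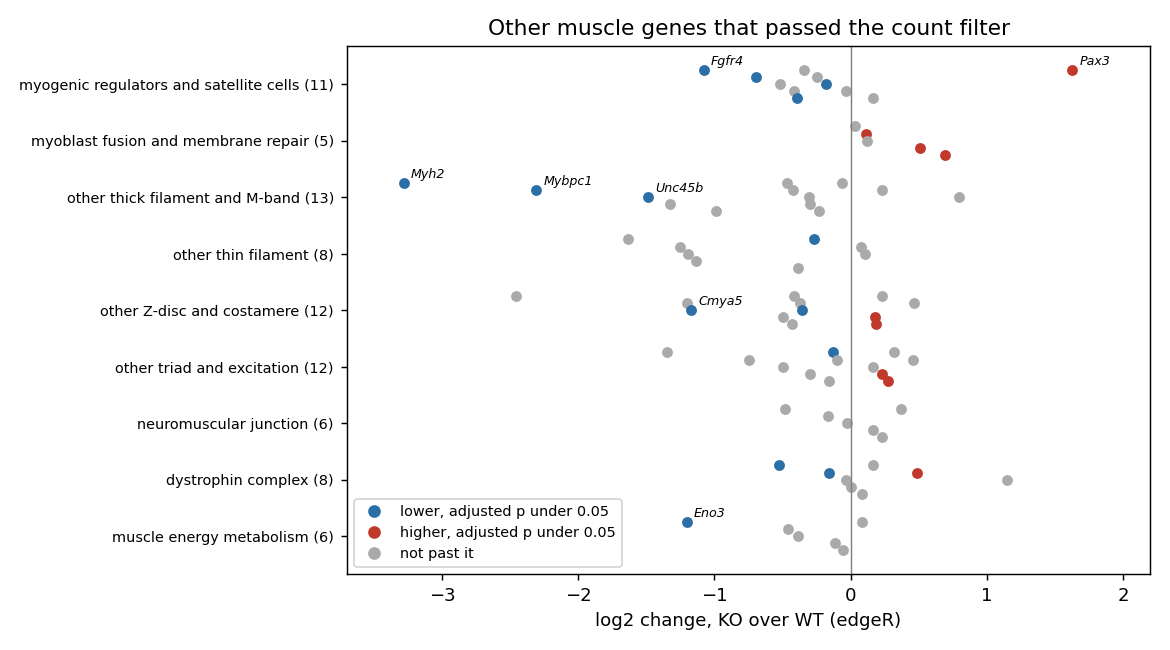
log2 change, KO over WT, of the 81 other muscle genes that passed the count filter, by list (number tested in brackets), coloured by the edgeR call. Blue points reach -3.28 (Myh2) and -2.31 (Mybpc1) in the thick filament list, and the farthest red point is Pax3 at 1.62.

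Early myogenic genes were read without a common direction. Of 11 tested regulators and satellite cell genes 4 fell and 1 rose. The least stable of the 4 falls kept its call in only 5 of 15 alternative fits. Pax7, the marker of satellite cells, had 82, 97 and 85 counts in KO and 119, 99 and 109 in WT, with a log2 change of -0.41 ± 0.24 (adjusted p = 0.269 in edgeR). Pax3, which acts in muscle and neural crest precursors, rose from 91, 54 and 71 counts in WT to 222, 241 and 258 in KO (1.62 ± 0.23, adjusted p = 5.90e-04 in edgeR). Fgfr4, a growth factor receptor of myoblasts, fell (-1.08 ± 0.19, adjusted p = 0.00244), as did the widely expressed Mef2a (-0.39 ± 0.04, adjusted p = 5.52e-05). Myf5 had 4 counts in 1 KO library and none in the other libraries.

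The other lists held few calls. Of 8 tested thin filament genes only tropomyosin Tpm1 fell (-0.27 ± 0.03, adjusted p = 5.63e-05 in edgeR), a gene read at 158 FPKM in KO and 184 FPKM in WT that non-muscle cells also use, and the heart and fetal actin Actc1 (-1.25 ± 0.62) did not pass. Of 12 Z-disc and costamere genes 2 fell and 2 rose, with Cmya5 at -1.17 ± 0.15 and filamin C (Flnc) at 0.18 ± 0.04. Of 12 triad genes Asph fell, a call lost in limma on FPKM (adjusted p up to 0.103), and 2 rose, the junctophilin Jph2 by 0.27 ± 0.04 and Bin1 by 0.23 ± 0.04. Of 8 dystrophin complex genes 2 fell and 1 rose, the gene that rose being the dystrobrevin Dtna (0.49 ± 0.11), a call lost in limma on log2(FPKM + 1) without a filter (adjusted p = 0.109). The less stable of the 2 falls kept its call in 8 of 15 alternative fits. Of 6 energy genes Eno3, the muscle enolase, fell from 5.83 ± 1.19 to 2.60 ± 0.13 FPKM (-1.20 ± 0.14, adjusted p = 1.57e-04).

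Of 5 tested fusion and membrane repair genes 3 rose and none fell, namely Dysf, which encodes dysferlin (0.50 ± 0.05), Cav3 (0.69 ± 0.18) and Myof (0.11 ± 0.04). Cav3 lost its call without KO replicate 1 or WT replicate 3 (adjusted p up to 0.0727 in edgeR), and Myof without KO replicates 1 or 3 or WT replicates 1 or 3 (adjusted p up to 0.163). None of 6 tested genes of the neuromuscular junction was called, the lowest adjusted p being 0.190 for the receptor subunit Chrnb1 (0.37 ± 0.18, edgeR).

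Markers of other cell types moved in the same libraries. Of 5 tested adipocyte markers 4 fell and none rose, with a summed level over 6 genes of 3.54 to 3.80 FPKM in KO and 6.71 to 7.62 FPKM in WT, nearly all of the KO level being Pparg, which was not called. Plin1, a lipid droplet protein, had 13, 0 and 0 counts in KO and 178, 232 and 167 in WT (adjusted p = 3.55e-04 in edgeR). The adipokine gene Adipoq fell 22.6-fold (adjusted p = 4.29e-04) and the fatty acid carrier Fabp4 11.3-fold (adjusted p = 1.35e-05), and Cidec had no KO count. All 5 macrophage markers rose (88.3 to 95.5 against 27.4 to 38.3 FPKM). Of 3 tendon markers 2 fell (146.9 to 150.5 against 281.5 to 290.6 FPKM), nearly all of the sum being Tnmd, while Scx was not called. Of 4 endothelial markers 2 fell (1.19 to 1.44 against 2.31 to 2.38 FPKM), most of the sum being Tek. Pecam1 (log2 change -0.71 ± 0.48) and Kdr (0.64 ± 0.57) were not called. Of 8 smooth muscle markers 2 fell and 3 rose (1361 to 1473 against 1488 to 1536 FPKM), most of the sum being Acta2, which was among those that fell. Schwann cell markers summed to 16.9 to 18.1 FPKM in KO and 8.87 to 11.5 FPKM in WT, nearly all of it S100b. The part of these cells in the muscle gene differences was not tested. Markers of heart muscle were near 0, with a summed 0.20 to 0.40 FPKM in KO and 0.15 to 0.32 FPKM in WT, mostly from Tnni3, and Myh6, Nppa, Nppb, Mybpc3 and Nkx2-5 were too low to test. Myl7 and the adipocyte gene Ucp1 were not analysed here.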

How the data were processed

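Poly(A) RNA of 3 NDR1 KO and 3 WT osteoblast libraries was sequenced, with groups and replicate numbers from the labels. The authors deposited 1 table with whole-number estimated counts and FPKM per gene and library, per the file headers. The submitters' processing notes name cutadapt 1.9, HISAT2 2.0.4 and StringTie 1.3.4d, and list a human build although the identifiers are of mouse, so the deposited coordinates carry no settled build. The sources used here do not say how counts were made. If the pile-up of low counts at multiples of 4 reflects about 4 counts per fragment, counting noise is larger than the counts alone would give. All 12 value columns were used.

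Counts were tested with edgeR 4.0.16 (TMM, filterByExpr, quasi-likelihood, two-sided, Benjamini-Hochberg over 18221 genes, called under 0.05) in R 4.3.3. The plan named counts, and the estimated counts were already whole. Each standard error was derived from the log2 change and its F statistic. Alternatives used DESeq2 1.42.0, limma 3.58.1 on log2(FPKM + 1) or log2(FPKM + 0.1), other scalings, no filter, a replicate block, and each library left out. edgeR on counts divided by 4 was chosen after seeing the data. The fit was checked on simulated counts in which 200 genes were changed. The changed genes were drawn from well-counted genes only, so the check does not cover the sparse members. Intervals and floors cover counting error only. The floors cover it on the KO side only, with the WT mean taken as exact. Replicates of a group differed by more than counting noise (median chi-square per gene 0.69 to 0.81 on counts divided by 4, where pure counting gives 0.455).

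Members and lists were chosen with earlier results of these data known. Values are printed for the most abundant and most changed members of each role group and for the sparsest. Further muscle genes are named by lowest p, up to 3 per list, with Pax7, Myf5, Myh2, Myh7 and Actc1 named whatever their values. A gene that this rule would name is not reported here. Alpl, Dmp1, Bglap, Col1a1, Col1a2, Pparg, Plin1, Adipoq, Fabp4, Cidec, S100b, Acta2, Tnmd, Scx, Tek, Pecam1, Kdr and the genes that overlap members were named after their values were seen.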

Additional observations from a re-analysis of the deposited data

How the results depend on the processing

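The 17 called members kept their direction in every alternative that gave them a value, and Myh1, Myh8, Mylpf, Pvalb, Mybph, Myom2 and Ldb3 kept their calls in each. Mybph and Myom2 were too low to test with counts divided by 4, so that fit says nothing of their calls. Against 16 members called lower of 32 tested, 9 of 19 tested were with counts divided by 4, an alternative chosen after seeing the data. In limma among genes averaging 1 FPKM or more only Actn3, Acta1 and Pvalb were tested, and 2 were called lower on log2(FPKM + 1), Pvalb and Acta1, and 1 on log2(FPKM + 0.1), Pvalb. In those limma fits no member was called higher (0 of 3 tested). Other muscle genes called lower numbered 7 of 37 tested in both. All genes called lower numbered 1267 and 1254 in those fits and 1246 in limma without a filter, against 2131. The share of calls that were higher was 49.0% with TMM, 63.0% on library totals without TMM and 64.4% in limma on log2(FPKM + 1). In limma among genes averaging 1 FPKM or more, and with counts divided by 4, the lower counts of members go with fewer members tested. Fewer than 16 were also called lower where as many or more were tested. They numbered 13 of 32 in DESeq2, 12 of 39 in edgeR without a filter and 11 of 39 in limma without a filter. The cause of these and the other shifts was not tested. Depth limits the precision of the sparse members, whose libraries hold a few fragments each.

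Leaving out 1 library at a time gave 11 to 14 members lower and 1 higher, 12 to 13 other muscle genes lower and 7 to 10 higher, 1712 to 1893 of all genes lower and 1588 to 1731 higher, and a Stk38 log2 change of -0.64 to -0.58. Myh3 lost its call without WT replicate 2 (adjusted p = 0.0520 in edgeR). With a replicate block edgeR called 13 members lower and 1 higher, 15 other muscle genes lower and 10 higher, and 1976 of all genes lower and 1912 higher. Same-numbered KO and WT libraries did not deviate together (correlations of -0.04, -0.03 and -0.01), so the numbers were not taken as pairs.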
